A study of Mus musculus with 6 samples.

Results

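The genes described here are those of the insulin-like growth factor (IGF) system: the ligands *Igf1* and *Igf2*, the receptors *Igf1r* and *Igf2r*, and the binding proteins *Igfbp2* to *Igfbp7*. They were taken by symbol, 10 genes of the 24972 in the deposited table. Isolated lung endothelial cells (iLECs) taken at P7 were profiled by RNA-Seq, 3 libraries for the control genotype and 3 for *Atp6ap2*iECKO. Both groups were C57BL/6 by their labels, although the study's methods describe its transgenic lines as kept on a mixed CD1 and C57BL/6 background. Both carried the floxed *Atp6ap2* allele, labelled PRR (Atp6ap2)fl/Y, and received tamoxifen (100 μg) on each day from P1 to P3. The *Atp6ap2*iECKO samples carried in addition Cdh5-CreERT2, an inducible Cre under the *Cdh5* promoter, which is active in endothelium. The controls had no Cre, so the presence of active Cre and the deletion cannot be told apart. iLECs were CD31+ cells pulled from digested lung with antibody-coated magnetic beads, a selection that enriches endothelial cells and does not sort single cells. The labels do not say how many pups made up a sample, so *P* values measure the spread between these samples.

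IGF1 and IGF2 are small growth factors related to insulin. Both signal through IGF1R, a tyrosine kinase that recruits the docking proteins IRS1 and IRS2 and so feeds the PI3K-AKT and ERK pathways. IGF2R has no kinase: it takes up IGF2 for degradation and, as the cation-independent mannose 6-phosphate receptor, carries hydrolases to lysosomes. The binding proteins hold IGFs in the extracellular space and in blood, and secreted proteases such as PAPP-A release them. In lung, mesenchymal cells are a known source of IGF1, and IGF2 is an imprinted gene of fetal growth whose level falls after birth.

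The binding proteins have a cysteine-rich domain near the amino terminus. A stretch of it is shown here as 24 coding bases of 1 annotated transcript of each gene (GENCODE, GRCm38), with cysteine codons in capitals, because it shows what most of the family shares and where *Igfbp6* differs.
Igfbp2: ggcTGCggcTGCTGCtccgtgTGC
Igfbp3: ggcTGCggcTGCTGCctgactTGC
Igfbp4: ggcTGCggtTGTTGCgccactTGC
Igfbp5: ggcTGTggcTGCTGCatgactTGC
Igfbp6: ggcTGTacagaagccggaggcTGT
Igfbp7: gcgTGCgggTGCTGCccggtgTGT
Each stretch lies in exon 1, at chr1:72824778-72824801 (plus strand) for *Igfbp2*, chr11:7213566-7213589 (minus) for *Igfbp3*, chr11:99041650-99041673 (plus) for *Igfbp4*, chr1:72873966-72873989 (minus) for *Igfbp5*, chr15:102144716-102144739 (plus) for *Igfbp6* and chr5:77407826-77407849 (minus) for *Igfbp7*. *Igfbp6* had 2 cysteine codons among these 8 and each of the others had 4.

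The deposited values are estimated counts that had been scaled between libraries, and are given below as normalized counts. Library totals ran from 26243878 to 28725799, and the read numbers behind them are not given. Only relative depths were estimated, from the step between low values. They were 1.00 to 1.04 times the shallowest control in controls and 1.25 to 1.55 times in *Atp6ap2*iECKO libraries. *Atp6ap2*, the deleted gene, had normalized counts of 7490.2, 5815 and 5681 in controls and 4219.8, 2336 and 1982 in *Atp6ap2*iECKO replicates 1 to 3, with no overlap between genotypes (log2 fold change -1.22, standard error 0.26, adjusted *P* = 0.0306 from limma). Replicate 1 kept the most transcript, and the call was lost in 5 of the 6 fits that left out a library (adjusted *P* up to 0.103). The labels give fl/Y for all 6 samples, but 4 libraries, 2 of each genotype, had between 37704 and 47487 normalized counts of *Xist*, the RNA of the inactive X chromosome, against 31.7 in control replicate 3 and 19.3 in *Atp6ap2*iECKO replicate 2. The study reports that it used neonates of both sexes, and it defines both groups to include fl/fl females. It does not give the sex of the mice behind each library. The endothelial label held: *Pecam1* and *Cdh5* had at least 48730.3 and 76599 normalized counts in every library, and 0 of 25 endothelial markers differed by limma at an adjusted *P* value below 0.05 (3 at an unadjusted *P* value below 0.05). Of all 14456 genes tested, 8.25% differed at an adjusted *P* value below 0.05 by limma (4.97% lower, 3.28% higher). At an unadjusted *P* value below 0.05, 23.9% did. Markers of fibroblasts and mural cells did differ. Of 24 fibroblast markers tested, 19 were lower and 0 higher at an adjusted *P* value below 0.05 (median log2 fold change -1.48). Of 20 mural markers 11 were lower and 0 higher (median -1.48). Of 20 epithelial markers 0 were lower and 1 higher. Of 19 leukocyte, 7 lymphatic and 2 mesothelial markers tested, 0 passed in either direction. The 25 fibroblast markers summed to 193396 to 247007 normalized counts per control library, against 101859.9 to 141649 per *Atp6ap2*iECKO library, and the 20 mural markers to 15842 to 23851 against 6631 to 8383. None of their defining genes was at 0: *Pdgfra* and *Col1a1* had at least 519 and 3913 normalized counts in every library, and *Pdgfrb* and *Acta2* at least 1934 and 269. In such bulk samples, fewer cells of a type and less RNA per cell cannot be told apart. What part these cells have in the IGF values was not tested.

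All 10 IGF genes passed the filter on low values, which asked for 3 or more libraries with a value of 10 or more. *Igfbp6* passed with a value below 10 in control replicate 2. *Igfbp4* alone, 1 of the 10, was lower in *Atp6ap2*iECKO iLECs at an adjusted *P* value below 0.05 (limma, log2 of the value plus 1, Benjamini-Hochberg adjustment over 14456 genes). None was higher, also without adjustment. The background was 8.25% of all genes tested, 4.97% lower and 3.28% higher, so 1 of 10 is close to the share of all genes. By sign alone, 8 of the 10 were lower and 2 higher. Of all 14456 genes tested, 7133 were lower and 7323 higher, which is also the background for the sign counts of the lists below. The signs of *Igf2r*, *Igfbp2*, *Igfbp6* and *Igfbp7* turned under some alternative settings. The median log2 fold change of the 10 was -0.16, and that of all genes tested was 0.0049. The IGF median stayed below 0 (from -0.31 to -0.071) under the alternative settings that can change it. Dropping the filter or limma's mean-variance trend, a replicate block and an *Xist* covariate leave these fold changes as they are. Those settings therefore could not move the median. The genotypes did not overlap for 1 IGF gene, against 29.8% of all genes tested.

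**Figure D1:**
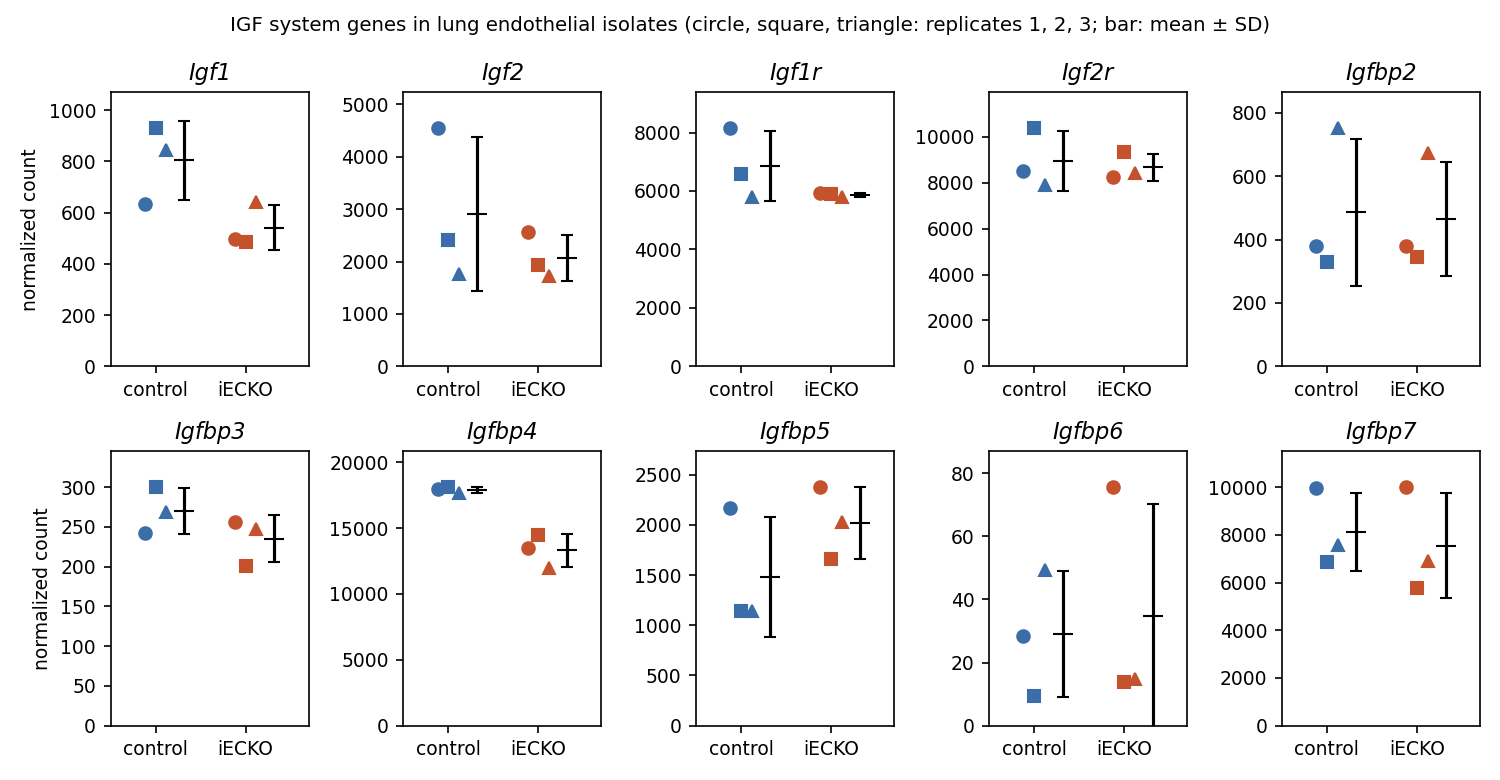
Normalized counts of the 10 IGF genes (y axis, linear, from 0) in control and *Atp6ap2*iECKO iLECs (x axis), with 1 point per library (circle, square and triangle for replicates 1, 2 and 3) and the mean ± SD of 3 libraries beside them. *Igfbp4* is the gene whose groups do not overlap, with controls from 17641 to 18115 and *Atp6ap2*iECKO libraries from 11979.8 to 14440.1. The lower error bar of *Igfbp6* in *Atp6ap2*iECKO runs below 0 and is clipped.

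*Igfbp4* encodes a secreted binding protein that holds IGFs away from their receptor until PAPP-A cleaves it. It lies on chromosome 11 of GRCm38 from 99041244 to 99054392, on the plus strand. Its normalized counts were 17959, 18115 and 17641 in control replicates 1 to 3 and 13509, 14440.1 and 11979.8 in *Atp6ap2*iECKO replicates 1 to 3. The controls lay within a narrow band and every *Atp6ap2*iECKO library lay below it. The means were 17905 ± 242 (SD, n = 3) and 13309.7 ± 1242 (SD, n = 3), with a log2 fold change of -0.43 (standard error 0.09, 95% interval -0.65 to -0.21, adjusted *P* = 0.0334 from limma). This equals a ratio of 0.741. An exact permutation test gave a two-sided *P* = 0.1, the smallest possible with 3 samples against 3. The adjusted *P* value rose above 0.05 in each of the 6 fits that left out 1 library (between 0.058 for control replicate 1 and 0.128 for *Atp6ap2*iECKO replicate 3, with log2 fold changes from -0.49 to -0.36), with *Xist* as a covariate (0.0612) and among the 4 libraries with *Xist* alone (0.167, log2 fold change -0.50).

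The 250 bases before the annotated start of *Igfbp4* (RefSeq, GRCm38.p6, chr11:99040994-99041243, plus strand) are printed because it is the one IGF gene past the threshold. Capitals mark the letters TATAAA, searched on both strands, which begin 28 bases before the start. They occur in such windows of 12.4% of 32851 promoters. Among the other IGF genes, *Igfbp6* alone had them in a window of this kind.
Igfbp4: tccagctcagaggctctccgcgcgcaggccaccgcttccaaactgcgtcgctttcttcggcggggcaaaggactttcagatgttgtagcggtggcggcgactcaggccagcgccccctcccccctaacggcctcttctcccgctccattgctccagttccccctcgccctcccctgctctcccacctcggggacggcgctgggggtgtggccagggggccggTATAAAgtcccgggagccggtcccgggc

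The genes nearest to *Igfbp4* over the 6 libraries were *Pfkm*, *Tpgs2* and *Timp2*, by the root mean square difference of log2 values centred on the control mean (0.035, 0.035 and 0.042) among 11312 genes with a mean of at least 100. *Pfkm* encodes a phosphofructokinase of glycolysis and *Timp2* an inhibitor of matrix metalloproteinases. Their log2 fold changes were -0.45 (*Pfkm*), -0.44 (*Tpgs2*) and -0.42 (*Timp2*), near that of *Igfbp4* by construction.

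*Igfbp5* encodes a binding protein that also attaches to extracellular matrix. It lies on chromosome 1 from 72857932 to 72874884, on the minus strand, beside *Igfbp2* (72824503 to 72852474, plus strand). Its normalized counts were 2171, 1140.0 and 1139 in controls and 2377, 1662 and 2025 in *Atp6ap2*iECKO libraries. Control replicate 1 lay among the *Atp6ap2*iECKO libraries and the other controls lay below them all. The log2 fold change was 0.50 (standard error 0.25, 95% interval -0.08 to 1.09, adjusted *P* = 0.278 from limma), and rose to 0.81 when control replicate 1 was left out (adjusted *P* = 0.0292). *Igfbp5* and *Igfbp4* thus had point estimates of opposite sign.

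*Igfbp7* encodes a protein deposited around blood vessels and lies on chromosome 5 from 77349240 to 77408041. Its normalized counts were 9968, 6847 and 7581 in controls and 10001, 5756 and 6895 in *Atp6ap2*iECKO libraries. Replicate 1 was the highest library in each genotype and the groups overlapped (log2 fold change -0.13, 95% interval -0.62 to 0.36, adjusted *P* = 0.773 from limma). *Igfbp2*, whose product can bind integrins as well as IGFs, had 378, 328 and 752 in controls and 379, 344 and 671 in *Atp6ap2*iECKO libraries. Replicate 3 stood well above the others in each genotype, and the log2 fold change was -0.03 (95% interval -0.84 to 0.78, adjusted *P* = 0.972). The sum of 20 epithelial markers was also highest in control replicate 3, at 87849 against 34695 and 38267 in the other controls, but not in *Atp6ap2*iECKO replicate 3 (42632, within a range of 42454 to 49686); the part of epithelial cells was not tested.

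*Igfbp3*, on chromosome 11 from 7206086 to 7213923, encodes the main carrier of IGFs in blood. It had 242, 300.2 and 268 in controls and 257, 201 and 248 in *Atp6ap2*iECKO libraries, with overlap (log2 fold change -0.20, 95% interval -0.58 to 0.18, adjusted *P* = 0.512 from limma). *Igfbp6*, on chromosome 15 from 102144362 to 102149511, encodes a protein that prefers IGF2. It was the lowest member, with 28.3, 9.39 and 49.4 in controls and 75.6, 13.7 and 14.7 in *Atp6ap2*iECKO libraries. Its interval, -1.75 to 1.89 on the log2 scale, leaves a change of either sign undetectable at this level. *Igfbp1*, the liver-made member outside the 10, had 2.30, 2.35 and 4.50 in controls, was listed at 0 in all *Atp6ap2*iECKO libraries and was too low to test.

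**Figure D2:**
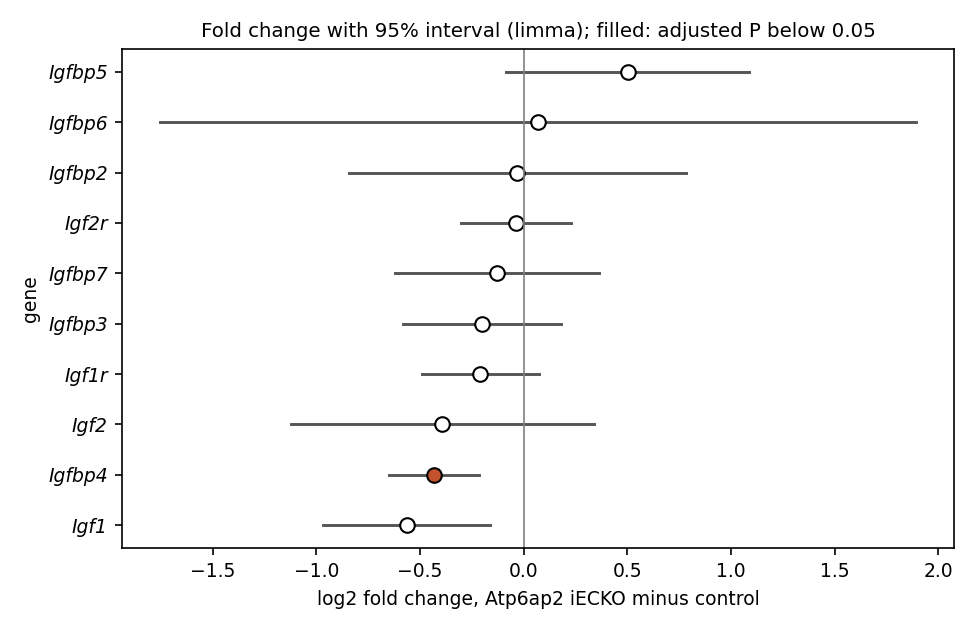
Log2 fold change of each IGF gene, *Atp6ap2*iECKO minus control (x axis), with its 95% interval from limma (lines). The filled point is *Igfbp4* (-0.43), the gene with an adjusted *P* value below 0.05. The intervals of *Igfbp4* and *Igf1* lie below 0, and that of *Igfbp6* is the widest.

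Of the ligands, *Igf1*, on chromosome 10 from 87858265 to 87937042, had normalized counts of 634, 931 and 845 in controls and 496, 484 and 642 in *Atp6ap2*iECKO libraries. Control replicate 1 lay just below *Atp6ap2*iECKO replicate 3, the one overlap between the groups. The means were 804 ± 153 and 541 ± 88.1 (SD, n = 3 each), with a log2 fold change of -0.56 (standard error 0.17, 95% interval -0.97 to -0.16, unadjusted *P* = 0.0121 and adjusted *P* = 0.0932 from limma). Leaving out control replicate 1 gave -0.72 (adjusted *P* = 0.0418). Control replicate 1 was also the control with the lowest sums of fibroblast and mural markers, 193396 and 15842. In the other genotype, *Atp6ap2*iECKO replicate 3 had the lowest of these sums, 101859.9 and 6631, but the highest *Igf1*. The part of these cells in the *Igf1* values was not tested.

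*Igf2* lies on chromosome 7 from 142650766 to 142666816, on the minus strand. It had 4551, 2406 and 1758 in controls and 2558.5, 1928 and 1725 in *Atp6ap2*iECKO libraries. Control replicate 1 stood above all others, and the remaining 5 libraries lay within the range 1725 to 2558.5. The log2 fold change was -0.39 (standard error 0.32, 95% interval -1.12 to 0.34, adjusted *P* = 0.507 from limma), and -0.011 without control replicate 1. Per kb of exon, *Igf2* exceeded *Igf1* in every library, by 3.92 to 13.5 times in controls and by 5.07 to 9.72 times in *Atp6ap2*iECKO libraries (means 7.44 and 7.44).

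Of the receptors, *Igf1r*, on chromosome 7 from 67952827 to 68233668, had 8162, 6598 and 5797 in controls and 5916, 5907 and 5783 in *Atp6ap2*iECKO libraries. The *Atp6ap2*iECKO libraries sat close together, at the level of the lowest control. The log2 fold change was -0.21 (95% interval -0.49 to 0.07, adjusted *P* = 0.353 from limma). *Igf2r*, on chromosome 17 from 12682406 to 12769664, had 8527, 10393 and 7897 in controls and 8235, 9333 and 8429 in *Atp6ap2*iECKO libraries, all of them inside the range of the controls. Its log2 fold change was -0.04 (95% interval -0.30 to 0.23, adjusted *P* = 0.883), so that the ratio of *Atp6ap2*iECKO to control lay between 0.81 and 1.17. *Insr*, the insulin receptor gene, had a log2 fold change of 0.04 (95% interval -0.19 to 0.27, adjusted *P* = 0.846).

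The 250 bases before the start of *Igf2r* (RefSeq, GRCm38.p6, chr17:12769707-12769956, minus strand) are shown because this receptor serves the lysosome, the compartment that the proton pump partner ATP6AP2 helps to acidify. Capitals mark the letters CACGTG, an E-box that reads the same on both strands, which begin 48 and 7 bases before the start. In all, 6.02% of 32851 promoters hold them in such a window, and of the other IGF genes *Igfbp2* had 1.
Igf2r: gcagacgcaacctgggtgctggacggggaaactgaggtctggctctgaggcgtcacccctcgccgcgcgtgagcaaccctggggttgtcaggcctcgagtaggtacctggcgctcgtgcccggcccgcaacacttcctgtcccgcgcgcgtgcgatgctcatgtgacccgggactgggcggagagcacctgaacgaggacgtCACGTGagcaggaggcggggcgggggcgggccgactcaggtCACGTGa

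Per kb of exon, the order of levels in control iLECs ran from *Igfbp7* (6726 ± 1349.8, SD, n = 3) through *Igfbp4* (4563 ± 61.6), *Igf2r* (1006 ± 146), *Igf1r* (601 ± 105), *Igf2* (553 ± 279), *Igfbp2* (333 ± 159), *Igfbp5* (247 ± 99.1), *Igfbp3* (86.3 ± 9.33) and *Igf1* (81.1 ± 15.4) to *Igfbp6* (26.1 ± 18.0). *Igfbp7* and *Igfbp4* stood above 98.8% and 98.0% of the genes tested, while *Igf1* stood above 34.2%. The control ranges of neighbours in this order overlapped between *Igf1r* and *Igf2*, *Igf2* and *Igfbp2*, *Igfbp2* and *Igfbp5*, and *Igfbp3* and *Igf1*, and were separate for the other pairs. In *Atp6ap2*iECKO libraries, *Igf1r* and *Igf2* were separate and *Igf1* and *Igfbp6* overlapped.

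As shares of the 6 binding protein genes per kb, *Igfbp7* and *Igfbp4* made up most of the total in every library. *Igfbp4* was 38.4% ± 4.49 in controls and 33.3% ± 6.78 in *Atp6ap2*iECKO libraries (SD, n = 3 each), with overlap (exact permutation test, *P* = 0.3, or 0.525 adjusted). *Igfbp5* was 2.67%, 1.76% and 1.63% in controls and 3.16%, 3.06% and 3.50% in *Atp6ap2*iECKO libraries, with no overlap. Its *P* value was 0.1 by a two-sided exact permutation test, the lowest this design can give, and 0.525 adjusted over 14 such ratios and sums. The 6 genes together had 11982 ± 1412 per kb in controls and 10398 ± 1863 in *Atp6ap2*iECKO libraries (exact permutation test, *P* = 0.3, or 0.525 adjusted).

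A list of partners of the system held proteases that cut the binding proteins, their inhibitors, related receptors and proteins that bind *Igf2* mRNA. Of its 17 genes 13 were tested, 11 with a negative and 2 with a positive log2 fold change (median -0.42), and 1 passed the threshold, a share near the 8.25% of all genes tested. This gene was *Lrp1*, an endocytic receptor that fibroblasts and smooth muscle also express. It had 6760.4, 9833 and 9144 in controls and 5299, 3026 and 4367 in *Atp6ap2*iECKO libraries (log2 fold change -1.04, standard error 0.22, adjusted *P* = 0.0287 from limma). Of all 14456 genes tested, the groups did not overlap for 29.8%, counting both directions, and 2172 had no overlap and were lower. Of the 13 partners tested, 6 had no overlap, all lower. Among these were the proteases *Pappa* (log2 fold change -0.45, adjusted *P* = 0.392), *Htra1* (-0.78, 0.075) and *Htra3* (-1.13, 0.105), none of them past the threshold. *Pappa*, whose product cleaves IGFBP4, was low, at 38.7, 35.2 and 38.4 in controls and 26.5, 28.6 and 26.1 in *Atp6ap2*iECKO libraries. *Stc1*, whose product inhibits PAPP-A, overlapped between genotypes (-0.21, adjusted *P* = 0.502).

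Of 40 genes of the relay below the receptors 39 were tested, 29 with a negative and 10 with a positive log2 fold change (median -0.072), and 2 passed, both lower. The share of all genes tested was 8.25% (4.97% lower), so 2 of 39 is not a result about the relay as a group, and both genes are given as single genes. *Irs2*, a docking protein of IGF1R and the insulin receptor, had 1926, 2617 and 2791 in controls and 1420, 1122 and 1309 in *Atp6ap2*iECKO libraries (log2 fold change -0.92, standard error 0.15, adjusted *P* = 0.0154 from limma). *Socs2*, a feedback inhibitor of growth hormone and IGF signalling, had 1725, 1892 and 1765 in controls and 1326, 1396 and 1168 in *Atp6ap2*iECKO libraries (-0.47, standard error 0.09, adjusted *P* = 0.0264). For both genes each *Atp6ap2*iECKO library lay below each control. *Irs1* did not pass (-0.58, adjusted *P* = 0.0652), although its groups did not overlap. The calls for *Irs2*, *Socs2* and *Lrp1* were each lost in some fits that left out a library, for *Irs2* without control replicate 3 (adjusted *P* = 0.0591) and without *Atp6ap2*iECKO replicate 2 or 3 (0.0574 and 0.0596). For *Socs2* and *Lrp1* they were lost without control replicate 2 or 3 and without *Atp6ap2*iECKO replicate 2 or 3 (adjusted *P* from 0.0637 to 0.101 for *Socs2* and from 0.0681 to 0.101 for *Lrp1*).

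Since *Igf2* and *Igf2r* are imprinted, 18 other imprinted genes with a part in growth were listed; these data do not show which parental allele a transcript came from. Of the 17 tested, 2 passed, both lower, a share near the background of 8.25% (4.97% lower). *Cdkn1c*, a brake on the cell cycle on chromosome 7 like *Igf2*, had 1431, 1319.9 and 1835 in controls and 757, 639 and 518 in *Atp6ap2*iECKO libraries (log2 fold change -1.26, standard error 0.17, adjusted *P* = 0.0103 from limma). This call was kept in all 6 fits that left out a library, with log2 fold changes from -1.39 to -1.12. *Ndn*, which encodes the growth suppressor necdin, had 917, 1163 and 1059 in controls and 677, 736 and 700.3 in *Atp6ap2*iECKO libraries (-0.56, standard error 0.11, adjusted *P* = 0.0256), and lost the call in all of these fits but the one without control replicate 1 (adjusted *P* up to 0.0969). The fibroblast and mural markers given above were lower in the same 3 libraries as all genes called here, *Igfbp4*, *Lrp1*, *Irs2*, *Socs2*, *Cdkn1c* and *Ndn*, and their part in these values was not tested.

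**Figure D3:**
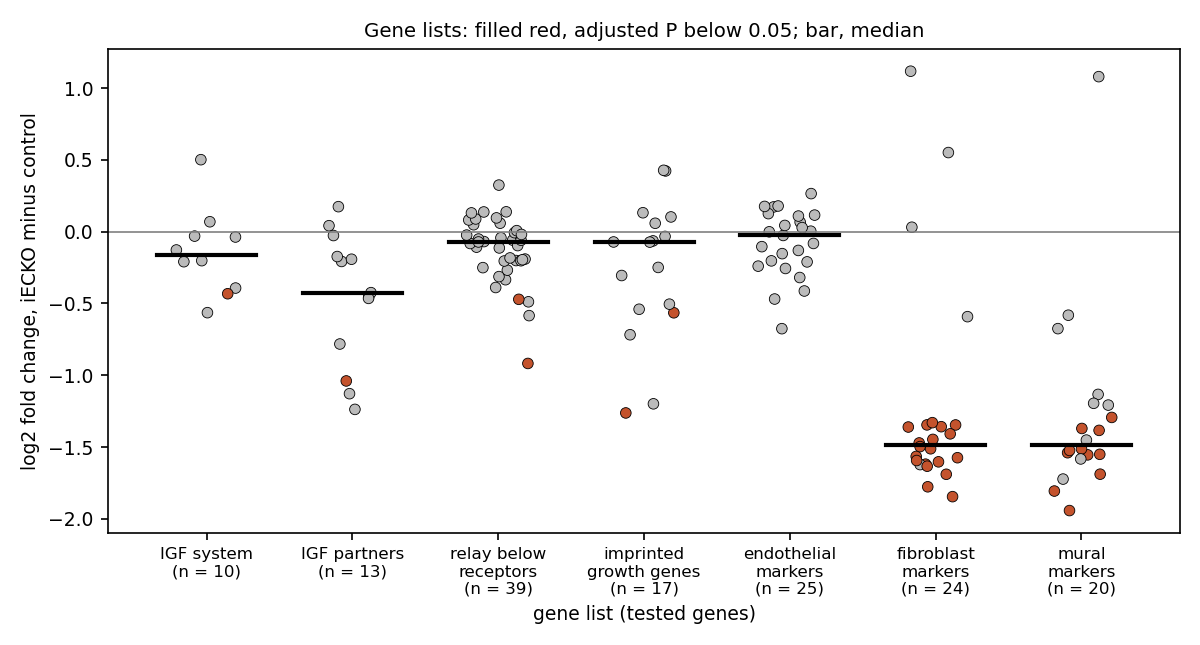
Log2 fold change, *Atp6ap2*iECKO minus control (y axis), of the tested genes of each list (x axis), with 1 point per gene, red where the adjusted *P* value was below 0.05, and a bar at the median. The medians are -0.16 for the IGF genes, -0.42 for their partners, -0.072 for the relay, -0.073 for imprinted growth genes and -0.026 for endothelial markers, and -1.48 for both fibroblast and mural markers.

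**Figure D4:**
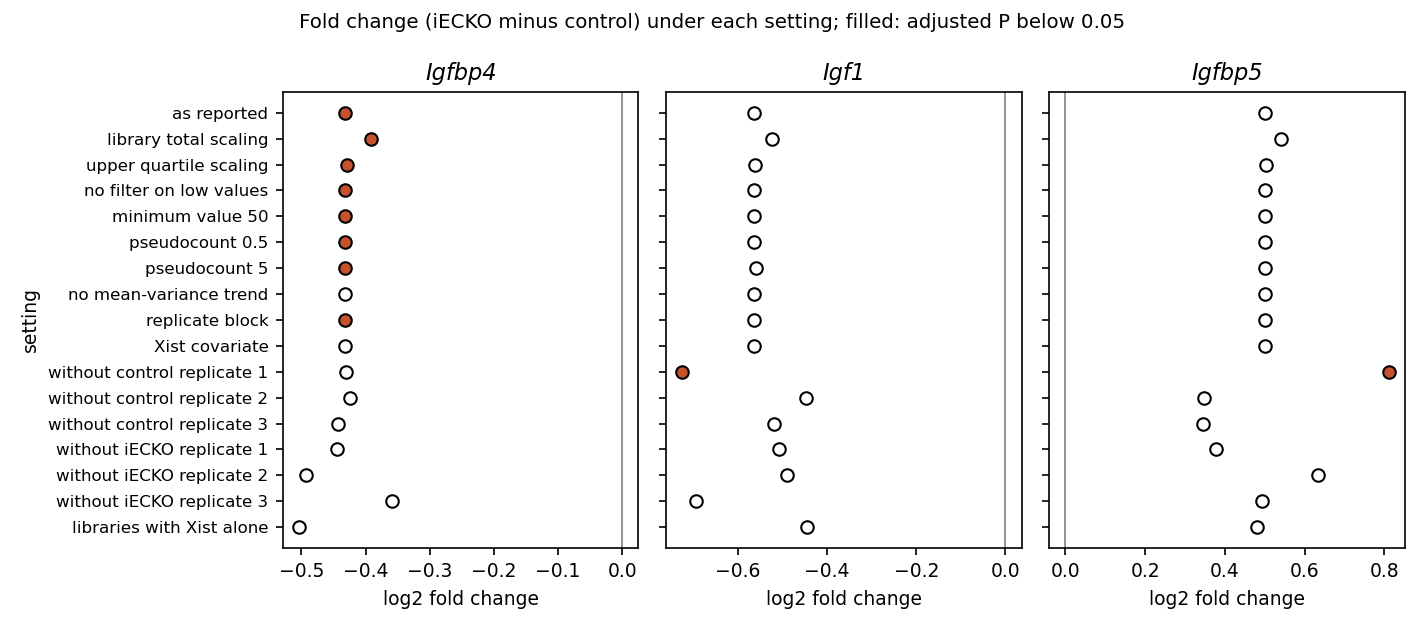
Log2 fold change, *Atp6ap2*iECKO minus control (x axes), of *Igfbp4*, *Igf1* and *Igfbp5* under each setting (y axis), with filled points where the adjusted *P* value was below 0.05. *Igfbp4* stays between -0.50 and -0.36 and *Igf1* below 0 throughout, while *Igf1* (-0.72) and *Igfbp5* (0.81) pass only without control replicate 1.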

How the data were processed

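The 6 libraries were made from CD31+ lung cells at P7 with a TruSeq mRNA kit. Alignment to mm10 and gene quantification were done by the authors with tools of the BaseSpace hub; an annotation is not given in the sources used here. The authors deposited 1 table of normalized signal. The labels call it raw counts, but the values are not whole, the median ratio to the geometric mean was 1.00 in each library, and between 41.0% and 58.9% of low values were whole multiples (within 0.05) of the commonest step. Count tests were therefore not run. That step placed *Atp6ap2*iECKO libraries at 1.25 to 1.55 times the depth of the shallowest control, and controls at 1.00 to 1.04 times. No counting interval is given.

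Genes with a value of at least 10 in at least 3 libraries (14456 of 24972) were tested with limma 3.58.1 (R 4.3.3, mean-variance trend, no covariate) on log2(value + 1), which understates changes of low genes, with Benjamini-Hochberg adjustment and a threshold of 0.05. Single ratios used exact permutation tests (scipy 1.17.1). Coordinates and exon lengths (union over basic transcripts) came from GENCODE M21 on GRCm38, which matched 24490 symbols (98.1%). All 10 IGF symbols matched the RefSeq promoter table. Fits were tested on simulated data. Figures used matplotlib 3.10.9.

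Members and lists were chosen with earlier results of these data known. Named genes were the 10 members, list genes past the threshold, the 3 nearest profiles to a called member and marker genes; other genes named were chosen after their values were seen. Alternatives were scaling, filters, pseudocounts, no trend, a replicate block, an *Xist* covariate, each library left out and, added after seeing the data, the libraries with *Xist* alone.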

Additional observations from a re-analysis of the deposited data

How the results depend on the processing

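The replicate numbers shared by the genotypes do not mark litters or days in the labels, so libraries sharing a number were not treated as pairs. Their deviations from the group means had correlations of 0.252, 0.114 and 0.0782. Libraries with different numbers had -0.208, -0.186, -0.0669, -0.0579, -0.0263 and 0.1002, the last for control replicate 3 with *Atp6ap2*iECKO replicate 2. Whether a replicate number marks a shared batch was not tested. With the replicate block, *Igfbp4* kept its call, 1 IGF gene was lower and 0 were higher, and the calls rose to 3 partners, 5 genes of the relay and 3 imprinted genes, the third being *H19* (-1.20, adjusted *P* = 0.00608). Without limma's mean-variance trend, 0 IGF genes, 0 partners, 0 relay genes and 1 imprinted gene passed; *Igfbp4* (-0.43, adjusted *P* = 0.0831) and *Atp6ap2* (-1.22, 0.0917) did not. With the *Xist* covariate, 0 IGF genes were lower, *Igfbp4* (-0.43) had an adjusted *P* of 0.0612, and 2 partners passed. Among the 4 libraries with *Xist* alone, 0 genes of these lists passed by limma, as did 0 of 14094 tested (2 IGF genes and 2196 in all at an unadjusted *P* value below 0.05), with *Igfbp4* at -0.50, *Atp6ap2* at -1.19 and, with the sign turned, *Igfbp2* at 0.52, *Igfbp7* at 0.0074, *Cdh5* at -0.083 and *Insr* at -0.039. Library total scaling turned *Igf2r* (0.0032) and *Igfbp2* (0.0094). With each library left out, IGF genes lower numbered 0 to 1 and higher 0 to 1, partners 0 to 3, relay genes 0 to 3 and imprinted genes 1 to 2. In these fits *Igfbp4* lay between -0.49 and -0.36, *Atp6ap2* between -1.54 and -0.999, *Igf2r* between -0.12 and 0.076, *Igfbp2* between -0.33 and 0.33, *Igfbp6* between -0.71 and 0.58, *Igfbp7* between -0.35 and 0.049, *Cdh5* between -0.062 and 0.20, *Insr* between -0.020 and 0.14 and *Stc2* between -0.73 and 0.054. The cause was not tested. Scaling, filters and pseudocounts changed no call of an IGF gene. Of all genes, 1193 passed as reported and 1508 with the replicate block. Without the trend 304 passed, with the *Xist* covariate 767, and with a library left out 206 to 983. With 3 libraries per genotype, intervals as wide as those of *Igf2* and *Igfbp6* limit what can be seen.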

Other observations

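*H19*, the imprinted noncoding RNA next to *Igf2* on chromosome 7 (142575529 to 142578143), was looked at after its values were seen. Its normalized counts were 22050, 10314 and 8634 in controls and 10594, 4560.2 and 3361 in *Atp6ap2*iECKO libraries, with overlap (log2 fold change -1.20, adjusted *P* = 0.162 from limma). Leaving out *Atp6ap2*iECKO replicate 1 gave -1.68 (adjusted *P* = 0.0463), and over the 6 fits that left out a library the adjusted *P* value reached 0.417. Replicate 1 was the highest library of each genotype for *H19*, as it was for *Igf2*. Within each library, which removes any scaling between libraries, *H19* exceeded *Igf2* by 4.85, 4.29 and 4.91 times in controls and by 4.14, 2.37 and 1.95 times in *Atp6ap2*iECKO libraries. The groups did not overlap (means 4.68 ± 0.344 and 2.82 ± 1.16, SD, n = 3 each). A two-sided exact permutation test gave *P* = 0.1, the lowest this design can give, and 0.525 adjusted over 14 ratios and sums. The ratio was lowest in *Atp6ap2*iECKO replicates 2 and 3, which also had the lowest sums of fibroblast markers (118468 and 101859.9, against 141649 in replicate 1) and of mural markers (6898 and 6631, against 8383), and the least *Atp6ap2*. Among controls, the ratio was lowest in replicate 2, which had the highest sum of fibroblast markers (247007). It was highest in control replicate 3, which had the highest sum of mural markers (23851). The part of these markers and of *Atp6ap2* in the ratio was not tested. *Airn*, the noncoding RNA that overlaps *Igf2r*, had a log2 fold change of 0.10 (adjusted *P* = 0.714); without strand the reads of such a pair cannot be told apart.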
